A study of Ovis aries with 9 samples.

Results

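The let-7 family was read in small RNA of sheep sperm as every deposited sequence whose annotation names an ovine let-7 in the sense direction, each sequence counted once. It has 7 members in these data, oar-let-7a, oar-let-7b, oar-let-7c, oar-let-7d, oar-let-7f, oar-let-7g and oar-let-7i, out of 105 miRNAs with an ovine name. The sperm came from the semen of wild-type F1 rams, and the series asks whether a ewe's feeding in gestation leaves a mark on the sperm of her sons. The mothers of the OVER group were overfed, those of the RES group had restricted feed and those of the CON group had standard feed. The sperm of all groups went through a detergent buffer that lyses somatic cells before the RNA was taken, and the labels state neither the age nor the breed nor the number of the rams. The labels give 3 samples to each group, but those 3 tables are identical in sequences and in reads, and each group therefore counts as 1 library. It may be a single ram or a pool. The differences between groups come without replicates and without a test, and every interval is a 95% interval of counting error only, without molecular identifiers to separate copies made by PCR.

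let-7 miRNAs are short RNAs that pair through a seed near their 5′ end with messenger RNAs and lower the output of those messengers. In animals from worms to mammals they mark the passage from growing to differentiated cells, with LIN28, HMGA2 and RAS genes among the classic targets in mammals. LIN28, an RNA-binding protein of stem and germ cells, in turn blocks the making of mature let-7. Dicer cuts the mature form out of a hairpin, the 5′ arm is the one usually kept, and enzymes that trim or add bases at the 3′ end give each member a set of end variants.

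The 7 mature sequences are shown first because the members differ by so few bases that this decides how far they can be told apart. For each member the commonest 22 nt sequence whose deposited annotation puts that member's name first is given 5′ to 3′, with T for U, and the capitals mark the seed, bases 2 to 8.
oar-let-7a: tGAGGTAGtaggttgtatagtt
oar-let-7b: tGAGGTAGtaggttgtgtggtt
oar-let-7c: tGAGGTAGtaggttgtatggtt
oar-let-7d: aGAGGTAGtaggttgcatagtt
oar-let-7f: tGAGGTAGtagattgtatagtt
oar-let-7g: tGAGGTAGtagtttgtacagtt
oar-let-7i: tGAGGTAGtagtttgtgctgtt
All 7 share 1 seed. Counted from 1 at the 5′ end, with the base of let-7a first, let-7c differs from let-7a only by A19G and let-7f only by G12A. let-7b differs by A17G and A19G, let-7d by T1A and T16C, and let-7g by G12T and T18C. The farthest from let-7a is let-7i, with G12T, A17G, T18C and A19T.

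The deposited annotation does not separate these near copies. It gives the let-7a sequence above the names of let-7a, let-7c and let-7f, the let-7f sequence those of let-7a and let-7f, and the let-7c sequence those of let-7a, let-7b and let-7c, while let-7d, let-7g and let-7i stand alone. Reads with a single let-7 name were 62.1% of the family in OVER, 58.4% in RES and 44.2% in CON. Of the reads named let-7a alone, 40.9% in OVER, 49.4% in RES and 29.0% in CON came from the other arm of the hairpin, and of those named let-7d, 52.7% in OVER, 47.5% in RES and 45.1% in CON did. Members were therefore also told apart by an exact match to the first 20 bases above, which placed 89.5% of family reads in OVER, 91.9% in RES and 94.8% in CON, and the member levels below are these counts unless single-name reads are stated.

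The OVER library held 8287937 reads, RES 13160116 and CON 9983895, of 15 to 42 nt. Reads annotated as miRNA were 1380832 in OVER, 1528187 in RES and 839260 in CON, which is 16.7% of all reads in OVER, 11.6% in RES and 8.41% in CON. The OVER library was the shortest by mean read length, at 23.3 nt beside 27.2 nt in RES and 28.5 nt in CON. Since the miRNA share itself differs, levels are given as a share of miRNA reads and, beside it, in RPM, reads scaled to a common total of all reads in the library. The cell type could be checked only in part. Of 13 marker miRNAs, only 3 miRNAs of the epithelial miR-200 family carry an ovine name, and the markers of male germ cells and of white and red blood cells were not analysed here.

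The let-7 family held a smaller part of the miRNA reads in OVER and in RES than in CON. It had 28387 reads in OVER, 16646 in RES and 25123 in CON. That is 2.06% of miRNA reads in OVER (2.03 to 2.08), 1.09% in RES (1.07 to 1.11) and 2.99% in CON (2.96 to 3.03). RES stands lowest and CON highest, and the intervals do not meet. On the RPM scale the order is another, with 3425 RPM in OVER, 1265 in RES and 2516 in CON. Only the place of RES below both other libraries is shared by the 2 scales. In a bulk sample, fewer cells that carry let-7 and less let-7 RNA per cell cannot be told apart.

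As a share of miRNA reads the family's log2 ratio was -0.54 for OVER against CON (-0.57 to -0.52, 1.46-fold lower), and in RPM it turned to 0.44 (1.36-fold higher). For RES against CON it was -1.46 (-1.49 to -1.43, 2.75-fold lower), and -0.99 in RPM. For OVER against RES it was 0.92 (0.89 to 0.94, 1.89-fold higher), and 1.44 in RPM. Going over to RPM moves every miRNA alike, by 0.99 in OVER against CON, 0.47 in RES against CON and 0.52 in OVER against RES. The distance of the family from the median of all ovine-named miRNAs compared does not depend on the scaling. Family minus median was -0.74 on the log2 scale in OVER against CON, -1.26 in RES against CON and 0.32 in OVER against RES. The family pools reads with 1 or more let-7 names, while the median is that of single-name ratios, 6 let-7 members among them.

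The 4 abundant members were let-7g, let-7a, let-7f and let-7i. let-7g, whose gene lies within WDR82 in the RefSeq sheep annotation, had 12990 reads in OVER, 6975 in RES and 7567 in CON. Its share of miRNA reads was 0.941% in OVER (0.925 to 0.957), 0.456% in RES (0.446 to 0.467) and 0.902% in CON (0.882 to 0.922). OVER and CON are close to each other on this scale and RES stands below both. In RPM it had 1567 in OVER, 530.0 in RES and 758 in CON, so that OVER stands highest.

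let-7a, whose mature sequence is that of the let-7 of worms and flies, had 6703 reads in OVER, 5152 in RES and 8859 in CON. This was 0.485% of miRNA reads in OVER (0.474 to 0.497), 0.337% in RES (0.328 to 0.346) and 1.06% in CON (1.03 to 1.08). Here CON stands above both other libraries, and OVER is nearer to RES than to CON. In RPM the OVER level comes near to CON, with 809 in OVER, 391 in RES and 887 in CON. let-7f, 1 base away from let-7a and carried within HUWE1 in RefSeq, shows the same order more widely spread. It had 1907 reads in OVER, 1204 in RES and 4582 in CON, or 0.138% of miRNA reads in OVER (0.132 to 0.144), 0.0788% in RES (0.0744 to 0.0834) and 0.546% in CON (0.530 to 0.562). In RPM it had 230.1 in OVER, 91.5 in RES and 459 in CON, the same order. let-7i, the most divergent sequence, was like let-7g, with 3050 reads in OVER, 1730 in RES and 2030 in CON. Its share was 0.221% in OVER (0.213 to 0.229), 0.113% in RES (0.108 to 0.119) and 0.242% in CON (0.231 to 0.253), so that OVER and CON lie close and RES lies lowest.

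let-7b, let-7c and let-7d were scarce. let-7b had 537 reads in OVER, 104 in RES and 497 in CON, and its share of miRNA reads was 0.0389% in OVER (0.0357 to 0.0423), 0.00681% in RES (0.00556 to 0.00825) and 0.0592% in CON (0.0541 to 0.0647). let-7c, which lies within 10 kb of miR-99a in RefSeq, had 179 reads in OVER, 63 in RES and 197 in CON, and shares of 0.0130% in OVER, 0.00412% in RES and 0.0235% in CON. Both are lowest in RES, also in RPM, where let-7b had 64.8 in OVER, 7.90 in RES and 49.8 in CON. let-7d, within 10 kb of let-7a in RefSeq, had 52 reads in OVER, 67 in RES and 93 in CON, with shares of 0.00377% in OVER (0.00281 to 0.00494), 0.00438% in RES (0.00340 to 0.00557) and 0.0111% in CON (0.00894 to 0.0136). As shares of miRNA reads, its OVER and RES levels do not differ beyond counting error.

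**Figure D1:**
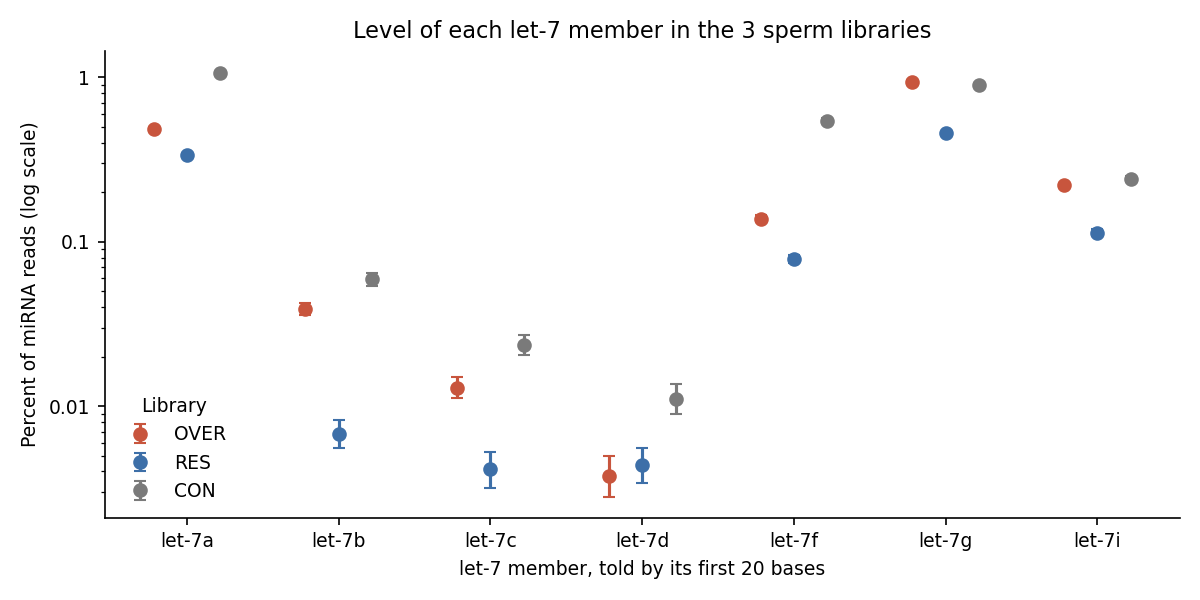
Level of each let-7 member as a percent of miRNA reads (log scale) in the OVER, RES and CON libraries, 1 library each. Points are values from reads told apart by their first 20 bases and bars are 95% Clopper-Pearson intervals, so small for abundant members that the point hides them. RES is lowest for 6 members, and CON is at least 2-fold above OVER for let-7a, let-7d and let-7f, while OVER and CON are close for let-7g and let-7i.

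The order of the members by level changed between the libraries. In OVER and in RES it ran let-7g, let-7a, let-7i, let-7f, let-7b, and in CON let-7a, let-7g, let-7f, let-7i, let-7b. The end of the order was let-7c then let-7d in OVER and in CON, while in RES the interval of let-7d meets those of let-7b and let-7c. The intervals of all other neighbours in these orders do not meet. Among the 105 ovine-named miRNAs, with reads of several names given in full to each, let-7g ranked 12 in OVER, 14 in RES and 15 in CON, and let-7a ranked 13 in OVER, 15 in RES and 9 in CON.

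In OVER against CON, the members parted into a group with lower shares and a pair with nearly equal ones. let-7f had a log2 ratio of -1.98 (-2.06 to -1.91, 3.95-fold lower), let-7d of -1.56 (-2.08 to -1.05) and let-7a of -1.12 (-1.17 to -1.07, 2.17-fold lower). These 3 keep their sign in RPM, where let-7f was 1.99-fold lower, let-7d had -0.57 and let-7a -0.13. let-7c had -0.86, which turns to 0.13 in RPM, and let-7b had -0.61, which turns to 0.38. let-7i had -0.13 (-0.21 to -0.05), 0.86 in RPM, and 0.22 when shared reads are given in full to each name. let-7g had 0.06 (0.02 to 0.10), 1.05 in RPM, and its sign turns with edgeR's TMM factors (-0.20) and with DESeq2's size factors (-0.24). The median of the 7 was -0.86 as a share and 0.13 in RPM.

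With single-name reads, 6 members had the 100 reads in the 2 libraries together that were asked of every miRNA. Of these 6, 3 (let-7b, let-7d and let-7f) were at least 2-fold lower in OVER than in CON as a share of miRNA reads, where 9.23% of the 65 miRNAs compared were, and 0 were at least 2-fold higher, where 18.5% of the 65 were. The median log2 ratio of the 6 was -0.85 beside 0.20 for all 65. Here and in the comparisons below, the miRNAs compared include the 6 let-7 members. These gave 3 of the 6 miRNAs at least 2-fold lower among the 65. In RPM, 1 member (let-7g) was at least 2-fold higher beside 55.4% of all, 0 were at least 2-fold lower beside 0% of all, and the medians were 0.14 and 1.19. The median of the let-7 members thus lay below that of all miRNAs. The distance is the same on either scale because RPM moves every miRNA alike, while the sign of the let-7 median depends on the scale.

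In RES against CON, all 7 members had lower shares. let-7b had a log2 ratio of -3.12 (-3.44 to -2.81, 8.70-fold lower), let-7f of -2.79 (-2.89 to -2.70, 6.93-fold lower) and let-7c of -2.51 (-2.94 to -2.09, 5.69-fold lower). let-7a had -1.65 (-1.70 to -1.60, 3.13-fold lower), let-7d -1.34 (-1.81 to -0.87), let-7i -1.10 (2.14-fold lower) and let-7g -0.98 (-1.03 to -0.94, 1.98-fold lower). The sign of all 7 is the same in RPM and with the TMM and DESeq2 factors, the value nearest to 0 being let-7g's -0.52 in RPM. The median of the 7 was -1.65 as a share and -1.18 in RPM. Of the 6 members with enough single-name reads, 5 (let-7a, let-7b, let-7d, let-7f and let-7i) were at least 2-fold lower as a share, beside 22.2% of the 63 miRNAs compared, and 0 were higher, beside 0% of the 63. Their median was -1.22 beside -0.20 for all 63. Of the 14 miRNAs at least 2-fold lower among the 63, 5 were these let-7 members. In RPM, 2 (let-7b and let-7f) were at least 2-fold lower beside 12.7% of all, 0 were higher beside 4.76% of all, and the medians were -0.75 and 0.27.

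As shares of miRNA reads, the epithelial markers were also lower in RES than in CON. In OVER the direction of oar-mir-200b and oar-mir-200c depended on how shared reads were counted. With reads of several names given in full to each, their shares summed to 0.656% in OVER, 0.115% in RES and 0.552% in CON. These sums count a read with 2 of the names more than once. In RES against CON the log2 ratio was -1.74 for oar-mir-200a, -2.49 for oar-mir-200b and -2.77 for oar-mir-200c. These values lie within the range of the 7 let-7 members, -3.12 to -0.98. In OVER against CON the log2 ratio, with names in full, was 0.41 for oar-mir-200a, 0.31 for oar-mir-200b and 0.03 for oar-mir-200c. By single-name reads it was 0.41 for oar-mir-200a, -0.32 for oar-mir-200b and -0.68 for oar-mir-200c. The let-7 family had -0.54 there. The part of the epithelial markers in the let-7 levels was not tested.

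In OVER against RES, the low shares in RES give let-7b a log2 ratio of 2.51 (2.21 to 2.83, 5.71-fold higher), let-7c 1.65 (1.23 to 2.09), let-7g 1.04 (2.06-fold higher), let-7i 0.96 and let-7f 0.81, positive also in RPM and with the TMM and DESeq2 factors. let-7a had 0.53, which turns to -0.07 with TMM and to -0.15 with DESeq2 factors. let-7d had -0.22 (-0.77 to 0.32) and 0.30 in RPM (-0.25 to 0.85), intervals that include 0, but -0.82 with TMM (-1.37 to -0.27) and -0.89 with DESeq2 factors (-1.45 to -0.35), where it was lower in OVER. The median of the 7 was 0.96 as a share. Of 6 members with enough single-name reads, 2 (let-7b and let-7g) were at least 2-fold higher, beside 34.3% of the 67 miRNAs compared, and 0 were lower, beside 5.97%. The medians, 0.92 for the 6 and 0.59 for all 67, are nearer to each other than in the comparisons with CON. In RPM, 5 were at least 2-fold higher beside 58.2% of all and 0 were lower beside 1.49%, and the medians were 1.44 and 1.12. These 3 comparisons use the same 3 libraries, so their values are not independent of each other.

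**Figure D2:**
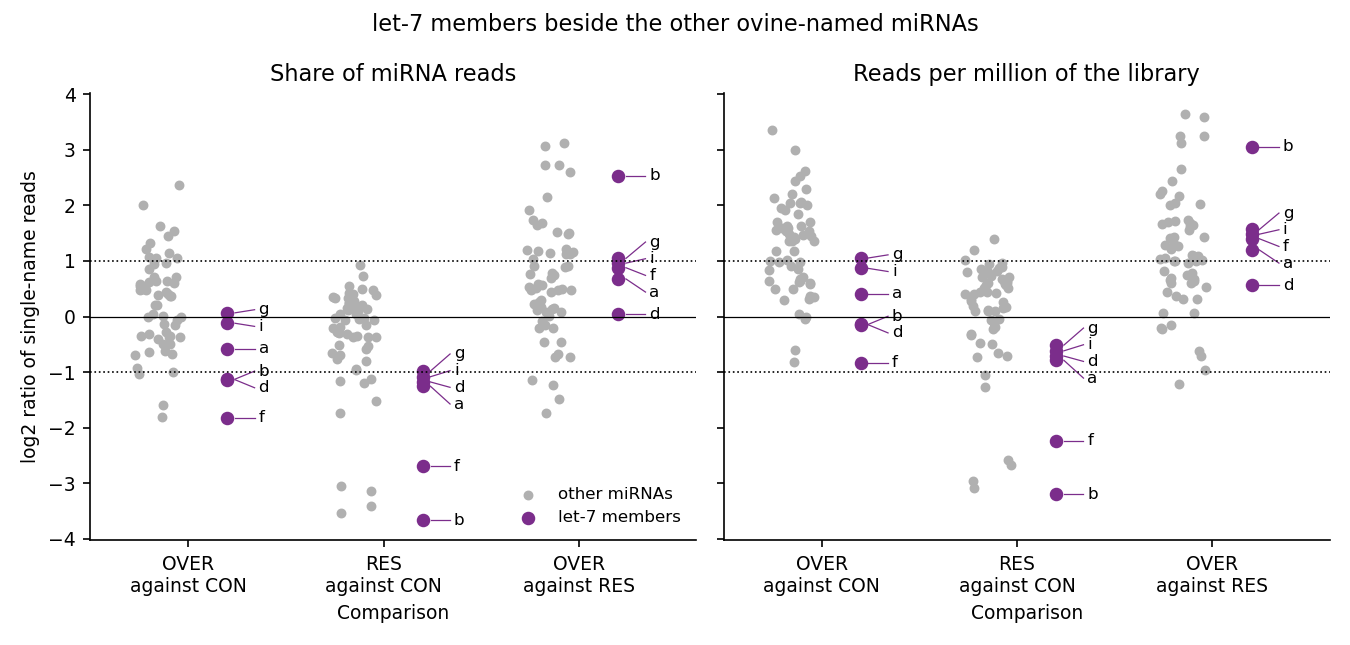
Log2 ratios of single-name reads for 6 let-7 members (purple, by last letter) beside the other ovine-named miRNAs with at least 100 reads in the 2 libraries (grey), on the share scale and in RPM, for 3 comparisons of 1 library each. Dotted lines mark 2-fold. The let-7 median lies below that of all miRNAs in OVER against CON and in RES against CON. The distance is the same on both scales because RPM moves every miRNA alike. As a share, let-7b is the lowest point of RES against CON at -3.66 (-4.49 to -2.92), which rests on 17 RES reads. oar-mir-26b lies next at -3.54, and let-7b had -3.12 by its first 20 bases.

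Ratios between members within a library need no scaling at all, and they show how the make-up of the family differed. Per read of let-7a there were 0.284 reads of let-7f in OVER (0.270 to 0.299), 0.234 in RES (0.219 to 0.249) and 0.517 in CON (0.499 to 0.536). Per read of let-7a there were 1.94 reads of let-7g in OVER, 1.35 in RES and 0.854 in CON, and the intervals do not meet. CON is the only library in which let-7a outnumbered let-7g. The ratio of let-7g to let-7f was 6.81 in OVER, 5.79 in RES and 1.65 in CON. let-7i kept nearer to let-7g, at 0.235 in OVER (0.226 to 0.244), 0.248 in RES (0.235 to 0.261) and 0.268 in CON (0.255 to 0.282).

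As a share of the family reads told apart, let-7g took 51.1% in OVER (50.5 to 51.7), 45.6% in RES (44.8 to 46.4) and 31.8% in CON (31.2 to 32.4). let-7a took 26.4% in OVER, 33.7% in RES and 37.2% in CON, and let-7f took 7.50% in OVER, 7.87% in RES and 19.2% in CON. At position 12, let-7g and let-7i have T (G12T), let-7f has A (G12A) and the other members, let-7a and let-7b among them, have G. A link between this base and the shares was not tested. let-7b took 2.11% in OVER (1.94 to 2.30), 0.680% in RES (0.556 to 0.823) and 2.09% in CON (1.91 to 2.28), so that it was the RES library that stood apart for let-7b, and CON for let-7f.

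**Figure D3:**
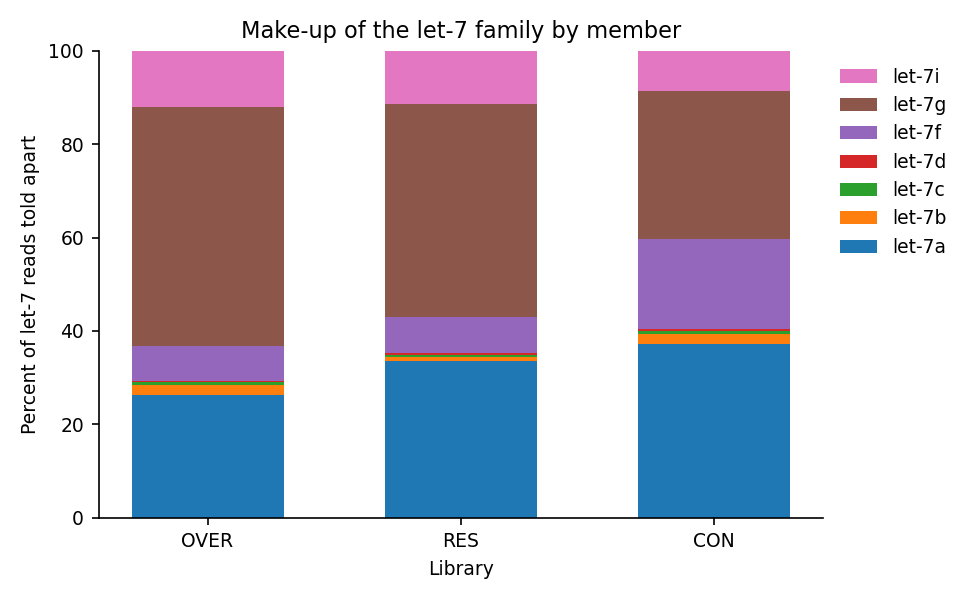
Make-up of the let-7 reads told apart by their first 20 bases, in percent, for the OVER, RES and CON libraries. let-7g is the largest part in OVER (51.1%) and RES (45.6%) and let-7a in CON (37.2%), and let-7f is wider in CON (19.2%) than in OVER (7.50%) or RES (7.87%).

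Most let-7 reads sat in a few sequences. The family had 425 distinct sequences in OVER, 286 in RES and 383 in CON, 676 in all, of which 145 were found in all 3 libraries. The 10 sequences with the highest mean share held 73.5% of let-7 reads in OVER, 76.4% in RES and 75.8% in CON. They were the 21, 22 and 20 nt forms of let-7g and its 23 nt forms ending in T and in A, the 21, 22 and 20 nt forms of let-7a, and the 22 nt forms of let-7f and let-7i. The first and second of them differ by a single base at the 3′ end and are shown for that reason.
let-7g, 21 nt: tGAGGTAGtagtttgtacagt
let-7g, 22 nt: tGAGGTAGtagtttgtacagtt
The 21 nt form had 5174 reads in OVER, 2865 in RES and 2411 in CON. The 22 nt form had 3783 reads in OVER, 2036 in RES and 2992 in CON. The shorter form leads in OVER and in RES and the longer one in CON. The 22 nt form of let-7f had 1008 reads in OVER, 550 in RES and 2936 in CON, the widest spread among the 10.

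The read lengths of the whole family show the same shift. Reads of 22 nt were 31.3% of let-7 reads in OVER (30.7 to 31.8), 31.9% in RES (31.2 to 32.6) and 44.2% in CON (43.5 to 44.8). Reads of 21 nt were 32.4% in OVER (31.8 to 32.9), 33.9% in RES (33.2 to 34.7) and 25.6% in CON (25.1 to 26.2). The commonest length was thus 21 nt in OVER and RES and 22 nt in CON. Reads of 15 to 19 nt, which are too short to name a member by 20 bases, were 6.32% in OVER, 3.59% in RES and 1.79% in CON. This order is also that of reads of 15 to 20 nt in the whole libraries, which were 29.6% in OVER, 10.3% in RES and 5.98% in CON, and their part in the let-7 lengths was not tested.

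Beside these stand the lengths of the other miRNA reads. The 21 to 22 nt ratio was 1.04 for let-7 in OVER, 1.06 in RES and 0.581 in CON, while for all other miRNA reads it was 0.535 in OVER, 0.507 in RES and 0.547 in CON. The commonest length of the other miRNA reads was 22 nt in OVER and RES and 23 nt in CON, and their ratio of 22 to 23 nt reads was 1.06 in OVER, 1.17 in RES and 0.707 in CON. The other miRNA reads thus also had more of the next shorter length beside their CON peak in OVER and RES, 1 nt above let-7. let-7 reads of 23 nt kept to 15.0% in OVER, 14.7% in RES and 15.0% in CON.

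**Figure D4:**
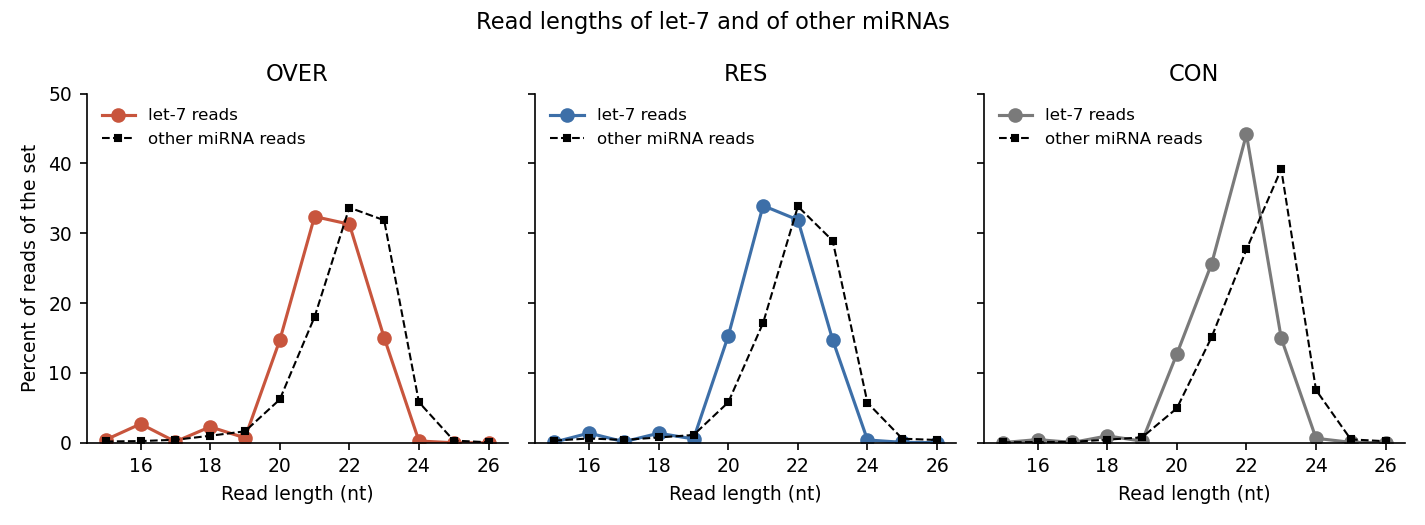
Read lengths (nt) of let-7 reads (coloured) and of all other miRNA reads (black, dashed) as a percent of the reads of each set, in OVER, RES and CON. let-7 reads peak at 21 nt in OVER and RES and at 22 nt in CON, 1 nt below the peak of the other miRNA reads in each library.

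Member by member, the 21 nt form was commoner relative to the 22 nt form in OVER and RES than in CON for the 4 abundant members. For let-7a the ratio was 1.34 in OVER, 1.29 in RES and 0.784 in CON, and for let-7g it was 1.37 in OVER, 1.41 in RES and 0.806 in CON. let-7f had 0.409 in OVER, 0.598 in RES and 0.266 in CON, and let-7i 0.341 in OVER, 0.276 in RES and 0.225 in CON, where the RES and CON intervals overlap. In every library the ratio was higher for let-7a and let-7g than for let-7f and let-7i. For let-7b (0.544 in OVER, 0.424 in RES and 0.393 in CON) the intervals overlap. They also overlap for let-7d, and for let-7c, which was lowest in OVER, at 0.124 beside 0.156 in RES and 0.192 in CON.

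A base beyond the 22 nt form was common in let-7i and let-7b. The 22 nt form plus T made up 16.7% of let-7i reads in OVER, 21.3% in RES and 23.1% in CON, and 19.2% of let-7b reads in OVER, 19.7% in RES and 26.6% in CON. It was rarer in let-7g, with 8.25% in OVER, 8.81% in RES and 9.66% in CON, and in let-7a, with 5.31% in OVER, 5.82% in RES and 7.77% in CON. For these 4 members the value was highest in CON, though the RES and CON intervals overlap for let-7i, let-7b and let-7g. let-7f had another order, with 7.50% in OVER, 8.69% in RES and 7.84% in CON, and its intervals overlap. The 22 nt form plus A was 13.8% of let-7i reads in OVER, 14.3% in RES and 9.40% in CON, and 7.99% of let-7g reads in OVER, 6.40% in RES and 5.98% in CON. Whether such a base comes from the hairpin or was added later could not be read from the genome flag, since in 5 of the 7 members all 4 possible bases after the 22 nt form are flagged as matching the genome.

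**Figure D5:**
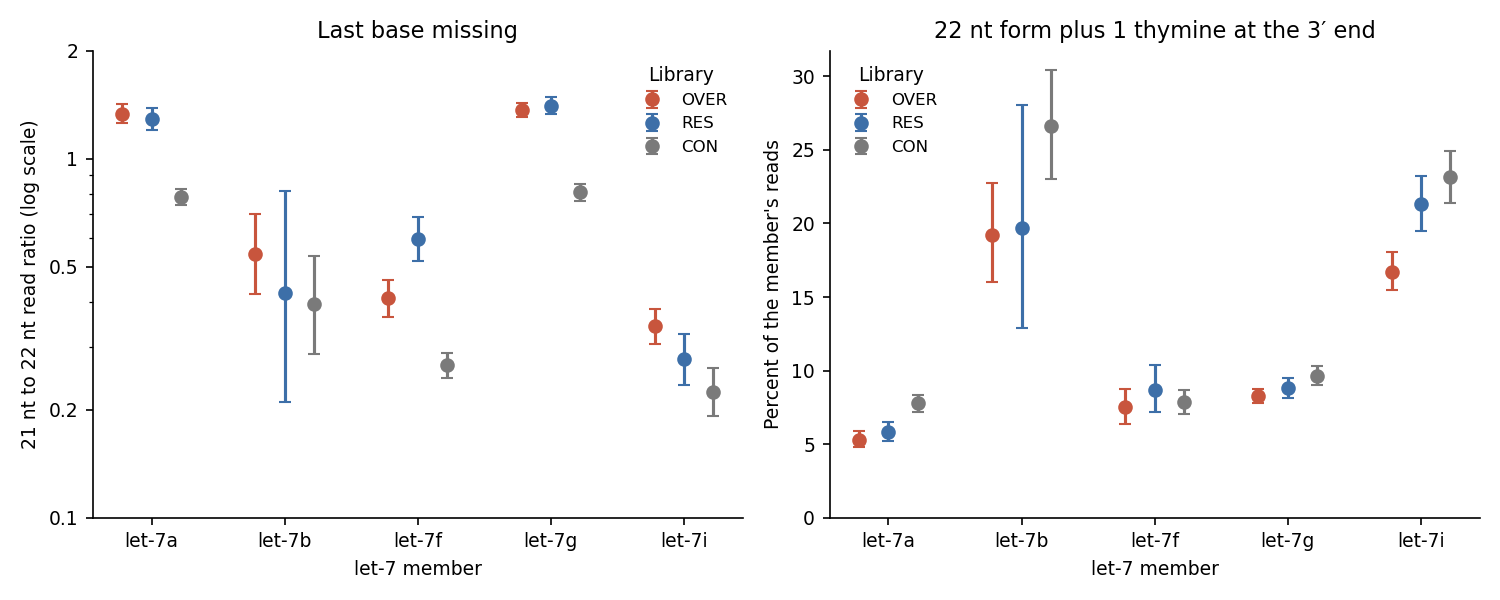
End forms of 5 let-7 members with at least 100 reads in each library. Left, ratio of 21 nt to 22 nt reads (log scale), and right, the 22 nt form plus 1 thymine as a percent of the member's reads, in OVER, RES and CON with 95% intervals of counting error. The 21 to 22 nt ratio of let-7a, let-7g and let-7f is lower in CON than in OVER and RES.

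The 5′ end, which sets the seed, hardly varied among reads whose start could be placed. Of the 5′ arm reads with bases 5 to 14 intact, 99.7% in OVER, 99.6% in RES and 99.6% in CON started at base 1. A further 280 reads of this arm in OVER, 121 in RES and 195 in CON had a mismatch or a cut in those bases, and their start was not placed. The other arm of the hairpin gave 2.45% of family reads in OVER (2.28 to 2.64), 2.96% in RES (2.70 to 3.22) and 1.58% in CON (1.43 to 1.74). Its leading sequences are shown because they carry other seeds, in capitals, than the family.
let-7a, other arm: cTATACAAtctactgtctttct
let-7d, other arm: cTATACGAcctgctgcctttc
The let-7a other arm had 589 reads in OVER, 404 in RES and 296 in CON, some of them also named let-7f. That is 8.08% of both arms in OVER (7.46 to 8.73), 7.27% in RES (6.60 to 7.99) and 3.23% in CON (2.88 to 3.62). The 5′ arm reads in this share are those of let-7a only, without those of let-7f. With other-arm reads named let-7a alone, the share was 5.15% in OVER, 5.57% in RES and 2.57% in CON. OVER and RES stand above CON in both shares, while the order of OVER and RES depends on the shared reads. In let-7d both arms were nearly equal, the other arm being 50.5% in OVER (40.5 to 60.4), 48.1% in RES (39.2 to 57.0) and 43.3% in CON (35.6 to 51.2). These intervals overlap.

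Outside the 7 mature sequences, the let-7 seed was sought at the same place in 22 nt genome-matching miRNA sequences without a member's first 20 bases. The most read pair found is shown with its differences from let-7a.
let-7a by name, with T9G: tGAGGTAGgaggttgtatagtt
unnamed miRNA, with G11A and A19T: tGAGGTAGtaagttgtattgtt
The first has the letters of let-7e of humans and is annotated as oar-let-7a in the files, and the second has those of human miR-98 and is annotated only as miRNA. Counted by its first 20 bases, the first had 149 reads in OVER, 58 in RES and 101 in CON. Its 22 nt form shown above had 45 reads in OVER, 6 in RES and 39 in CON. Counted likewise, the second, which is outside the family count, had 56 reads in OVER, 10 in RES and 63 in CON. The 22 nt form of the second had 38 reads in OVER, 7 in RES and 48 in CON. Both were scarcest in RES as a share of miRNA reads, at 0.00380% for the first and 0.000654% for the second.

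Of 6 miRNAs known to share a precursor transcript with a let-7 in mammals, oar-mir-99a and oar-mir-125b have an ovine name here. oar-mir-99a, made from the same transcript as let-7c in mammals, was far more abundant than let-7, at 10.4% of miRNA reads in OVER, 14.3% in RES and 11.4% in CON. With all reads of its name, its log2 ratio was -0.13 in OVER against CON and 0.33 in RES against CON. There let-7c had -0.86 in OVER and -2.51 in RES by its first 20 bases. With all reads of its name, let-7c had -0.91 in OVER and -1.64 in RES. oar-mir-125b had -0.41 in OVER and 0.05 in RES. The ratio of let-7c thus lay farther from that of oar-mir-99a in RES than in OVER.

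Among 49 other ovine-named miRNAs with at least 100 reads in each library, those whose pair of log2 ratios to CON lay closest to the family's -0.54 in OVER and -1.46 in RES were oar-mir-26a (-0.40 in OVER and -1.18 in RES, distance 0.31), oar-mir-107 (-0.85 and -1.27, distance 0.37) and oar-mir-103 (-0.90 and -1.25, distance 0.41). The measure is the Euclidean distance of the 2 ratios over 3 libraries, and with so few libraries it describes these tables only. It gives reads of several names in full to each name. By single-name reads, oar-mir-26a had -0.68 in OVER and -1.20 in RES, and oar-mir-103 had -1.03 and -1.17. oar-mir-107 did not reach 100 single-name reads in any 2 libraries. With names in full it had 0.0755% of miRNA reads in OVER, 0.0567% in RES and 0.136% in CON. Most of its reads thus carried another name as well. Reads it may share with oar-mir-103 were not counted apart, so these 2 miRNAs cannot be taken as separate cases. With names in full, oar-mir-26a had 1.29% of miRNA reads in OVER, 0.751% in RES and 1.70% in CON, below the family in each library.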

How the data were processed

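The 9 tables deposited by the authors list each distinct sequence with, per the file headers, its length in nt, its count of reads, a genome flag and an annotation. The counts are whole numbers without normalization. Per the labels' protocols, RNA of 15 to 50 nt was selected and libraries were made with the NEBNext small RNA kit and run on an Illumina NovaSeq. edgeR is the tool named by the submitters' processing notes. Which aligner, annotation and genome build were used is not given in the sources used here.

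Between the 3 tables of a group no count or genome flag differed, and annotations differed in at most 3 sequences, none of let-7. The edgeR quasi-likelihood test foreseen for differing tables could not be run. Members and lists were chosen with earlier results of these data known. All 7 members are named, with the 10 leading sequences and the 3 miRNAs nearest in both log2 ratios.

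A miRNA read is one annotated as ovine or unnamed miRNA in sense. Telling members apart by 20 bases was added after the data were seen. Shares have exact Clopper-Pearson intervals, and log2 ratios have intervals from the exact binomial of both counts, with 3 reads set in place of a count of 0. A call is a 2-fold ratio with 100 reads in 2 libraries. RefSeq names (7 of 7 found) are of assembly ARS-UI_Ramb_v3.0. Mature miRNA sequences come from the deposited reads. The ratio step was tested on simulated counts, where a first limit on the mean ratio was missed for low-count 4-fold decreases and was replaced by one on interval coverage. Python 3.11.15, pandas 2.3.3, numpy 2.4.6, scipy 1.17.1, matplotlib 3.10.9, R 4.3.3, edgeR 4.0.16 (TMM) and DESeq2 1.42.0 (size factors) were used.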

Additional observations from a re-analysis of the deposited data

How the results depend on the processing

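The family log2 ratio depended on the scaling. In OVER against CON it was 0.44 in RPM, -0.80 with TMM factors, -0.84 with DESeq2 size factors, -0.60 over ovine-named miRNA reads and -0.62 over reads of 20 to 24 nt. In RES against CON it was -0.99, -1.12, -1.08 and -1.37 under the first 4 of these. In OVER against RES it was 1.44, 0.32, 0.24, 0.76 and 0.81 under the 5. Genome-matching sequences and sequences with at least 10 reads gave values within the counting interval in all 3 comparisons. The number of members at least 2-fold apart (3 in OVER against CON, 5 in RES against CON, 2 in OVER against RES) became 1, 2 and 5 in RPM. In OVER against CON that 1 member was let-7g, higher in OVER, while the 3 by share were lower. With TMM or DESeq2 factors the number became 2 in RES against CON and 1 in OVER against RES. Full or equally split shared names, the first 20 bases and no filter kept these counts within 1.5 times, but not always with the same members. In OVER against CON, the first 20 bases gave let-7a, let-7d and let-7f in place of let-7b, let-7d and let-7f. In OVER against CON, let-7b turned to 0.25 and let-7i to 0.22 with shared names in full. Reads that start at base 1 put the 22 nt share at 30.6% in OVER and 31.0% in RES. No paired analysis was possible because the 3 tables of a group are identical, and leaving out a replicate could not be run for the same reason. let-7c and let-7d rest on fewer than 200 reads a library, so ratios near 0 were not detectable at this depth. Causes were not tested.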

Other observations

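Some reads begin with the first 20 bases of a let-7 member but carry no let-7 name, and so are outside the family counts. They numbered 469 in OVER, 478 in RES and 684 in CON, or 1.81% of all reads with such a start in OVER, 3.03% in RES and 2.79% in CON. The RES and CON intervals overlap. Most were 24 nt or longer, 84.9% in OVER, 83.1% in RES and 85.4% in CON. The commonest are shown with the bases beyond the 22 nt form in capitals.
let-7g plus AA: tgaggtagtagtttgtacagttAA
let-7i plus AT: tgaggtagtagtttgtgctgttAT
let-7i plus AA: tgaggtagtagtttgtgctgttAA
The let-7g form plus AA had 57 reads in OVER, 49 in RES and 97 in CON. The let-7i form plus AT had 79 reads in OVER, 50 in RES and 72 in CON, and that plus AA had 88 in OVER, 40 in RES and 54 in CON. These 3 are flagged as not matching the genome. The unnamed part was largest in let-7b, at 3.59% in OVER, 11.1% in RES and 13.0% in CON, and in let-7i, at 6.21% in OVER, 7.09% in RES and 8.68% in CON, the members that also had the most T after the 22 nt form.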
